A study of Mus musculus with 12 samples.

Results

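The 41 genes described here encode proteins that copy DNA in S phase or divide the cell in mitosis. They were taken by symbol from the deposited expression table, and all 41 were found. Of these, 17 act in DNA replication (Cdc6, Cdt1, Mcm2 to Mcm7, Gins2, Pcna, Rrm1, Rrm2, Tyms, Ccne1, Ccne2, E2f1 and E2f8) and 24 in mitosis. The count table holds 49315 genes, of which 18161 passed a filter on low counts and were tested, and all 41 members were among the tested genes. The members were measured by bulk RNA sequencing of femoral shafts from male mice aged 12 weeks, in 12 libraries that each pooled RNA of 2 mice.

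The libraries fell into 4 groups of 3. Libraries 7, 8 and 9 came from wild type mice gavaged with phosphate-buffered saline (PBS), and libraries 10, 11 and 12 from wild type mice gavaged with ethanol. Libraries 1, 2 and 3 came from mice without functional catalase genes (Cat-/-) given PBS, and libraries 4, 5 and 6 from Cat-/- mice given ethanol. Catalase, an enzyme of peroxisomes, splits hydrogen peroxide and can also use it to oxidise ethanol. Gavage ran on 4 days, with ethanol doses of 3.0, 3.0, 4.0 and 4.5 g/kg drawn from a 31.5% (v/v) solution, and the mice were killed 6 hours after the last dose. Cat-/- and binge ethanol were compared alone and together. P-values measure the spread between pools of 2 mice, since single mice cannot be seen.

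DNA replication starts when the origin recognition complex, with Cdc6 and Cdt1, loads the ring-shaped Mcm2 to Mcm7 helicase onto DNA in G1. In S phase the helicase is switched on, Pcna holds the polymerases on the template, and ribonucleotide reductase (Rrm1 and Rrm2) and thymidylate synthase (Tyms) supply nucleotides. Genes of this programme are switched on by E2F factors at the G1/S boundary, together with cyclin E (Ccne1 and Ccne2). Genes of G2 and mitosis, such as cyclin B, Cdk1, Plk1 and the kinesins, are switched on later through CHR and CCAAT promoter elements. In adult bone most dividing cells are blood cell precursors, with some dividing osteoblast precursors and chondrocytes.

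Library totals ran from 19950222 to 28789308 counts, and the lowest count of any member in any library was 247 (Gins2). Catalase RNA checked the labels: Cat stood at 128 to 175 CPM (counts scaled to the size of the library) in the 6 wild type libraries and at 65.9 to 74.2 CPM in the 6 Cat-/- libraries, lower in each of them. The label "femoral shaft" was checked with marker lists. Osteoblast markers (7 genes) summed to 5780 to 21800 CPM and osteocyte markers (5 genes) to 1740 to 4540 CPM, and none was at 0. Marrow had been spun out, yet 9 markers of mature neutrophils summed to 21500 to 38200 CPM and 10 erythroid markers to 2690 to 5490 CPM, so the libraries also held blood cell RNA. Skeletal muscle markers took 2.28% to 2.77% of the counts in libraries 8, 9 and 12 and 0.101% to 1.46% in the others.

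Part of the replication genes, and none of the mitosis genes, passed the test between ethanol and PBS. In the comparison of ethanol with PBS averaged over both genotypes, 6 of the 17 replication genes fell: Mcm3, Mcm4, Mcm5, Mcm6, Mcm7 and Pcna, by 0.23 to 0.26 on the log2 scale. None of the 24 mitosis genes passed the test in either direction (edgeR quasi-likelihood test, adjusted p under 0.05), and 2 had an unadjusted p under 0.05, both higher (Cenpf and Bub1), against 12.5% of all tested genes. DESeq2, limma-voom and limma-trend also called none of them. The count of 2 became 10 without library 12, 6 without library 1 or 7 and 0 without library 2, 3, 4, 6 or 9. Over all tested genes 5.81% fell and 5.02% rose in this comparison. The median log2 difference was -0.17 over the 17 replication genes, 0.06 over the 24 mitosis genes and -0.009 over all tested genes. The members' differences lay between -0.26 and 0.16. In bulk RNA, fewer cells of a type and less RNA per cell cannot be told apart.

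A value per library shows the same contrast without a fitted model. The mean log2 CPM of the replication genes minus that of the mitosis genes was -0.097, -0.124 and -0.027 in the wild type PBS libraries. It was -0.237, -0.257 and -0.314 in the wild type ethanol libraries. In Cat-/- libraries it was -0.028, 0.022 and 0.034 after PBS and -0.233, -0.228 and -0.155 after ethanol. Every ethanol library lay below every PBS library, in both genotypes. The group means were -0.083 ± 0.050 (SD, n = 3) and -0.269 ± 0.040 in wild type mice and 0.009 ± 0.033 and -0.205 ± 0.044 in Cat-/- mice, after PBS and ethanol. No p is given for this value, since the genes were chosen with results of these data known. Each set alone overlapped between the gavages: the replication mean was 6.73 to 6.86 after PBS and 6.41 to 6.79 after ethanol in wild type mice, and 6.96 to 7.05 against 6.78 to 6.98 in Cat-/- mice. The mitosis mean was 6.83 to 6.96 against 6.73 to 7.02 in wild type mice and 6.94 to 7.08 against 7.01 to 7.14 in Cat-/- mice. In Cat-/- mice both sets moved: the group mean went from 7.003 to 6.886 for replication and from 6.994 to 7.091 for mitosis genes. In wild type mice it went from 6.797 to 6.616 and from 6.880 to 6.886.

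**Figure D1:**
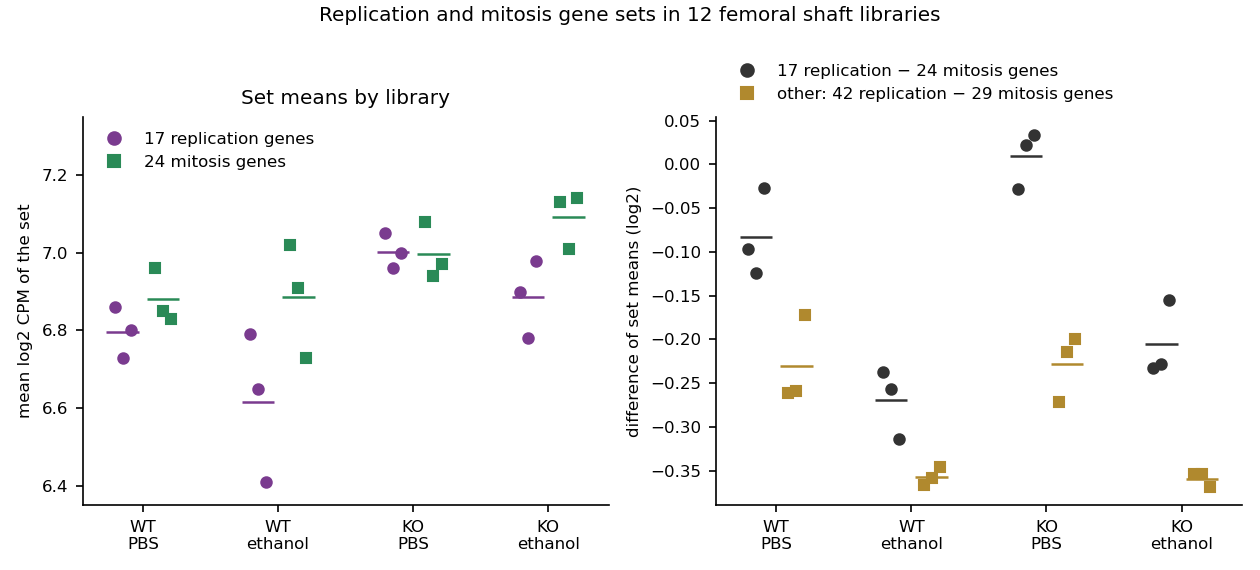
Left, mean log2 CPM of the 17 replication genes (circles) and the 24 mitosis genes (squares) in each of the 12 libraries, with lines at the group means. Right, replication minus mitosis in each library for the members (circles) and for 42 other replication and 29 other mitosis genes (squares); in both, each ethanol library lies below each PBS library of its genotype.

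The same difference was taken over genes that are not members. For 42 other genes of replication (polymerases, fork proteins, origin recognition and nucleotide synthesis) minus 29 other genes of kinetochores and cytokinesis, it was -0.271 to -0.172 in the 6 PBS libraries and -0.369 to -0.346 in the 6 ethanol libraries. The gavages did not overlap here either. These lists too were chosen with earlier results of these data known and were measured in the same libraries. They are therefore no independent repeat. Group means were -0.231 ± 0.051 (SD, n = 3) against -0.357 ± 0.010 in wild type mice and -0.228 ± 0.038 against -0.359 ± 0.008 in Cat-/- mice. In Cat-/- mice the other replication mean went from 5.631 to 5.579 and the other mitosis mean from 5.859 to 5.938. In wild type mice they went from 5.521 to 5.390 and from 5.752 to 5.746.

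The sets also differed in promoter motifs. As given above, replication genes are switched on by E2F factors and mitosis genes through CHR and CCAAT elements. A difference in these motifs thus goes with the kinds of gene in each set. It is no separate finding about the 12 libraries. RefSeq promoters on GRCm38.p6 (250 bases before to 50 after each start) were found for 14 replication genes (15 promoters, Mcm7 having 2) and 18 mitosis genes. They were searched on both strands for 3 kinds of motif. The E2F half-site was spelled TTCCCGC or, in its other form, TTGGCGC. The CHR element was spelled TTTGAA or, in its other form, TTCGAA, and the remaining motif was the CCAAT box. Matches of different motifs can share bases, as in the E2f8 and Ccnb1 promoters. An E2F half-site was found in 9 of 15 replication promoters, 3 of 18 mitosis promoters and 6.81% of all 32851 promoters of this length. A CHR element was found in 3 of 15, 14 of 18 and 19.2% of these, and a CCAAT box in 10 of 15, 16 of 18 and 37.4%. A match is a description of the letters and not a site of binding. The table has no promoter for Mcm4, Gins2, Ccne2, Ccna2, Cdc25c, Foxm1, Tpx2, Aurkb and Kif20a. Printed below are the 250 bases before the start, 5′ to 3′ on the gene's strand. They are for the 2 replication genes with the smallest p after ethanol and for 3 of the mitosis genes, none of which passed the test. The 3 mitosis genes printed all hold a CHR element and a CCAAT box. Among the other mitosis promoters, Birc5 and Nusap1 hold none of the motifs, and Cenpe and Ccnb1 hold no CHR element. Capitals mark E2F half-sites in Mcm5 and Mcm6, and CHR and CCAAT in Kif11, Cdk1 and Top2a, read on either strand, so that some appear as reverse complements.
Mcm5 (chr8:75109259-75109508, plus strand): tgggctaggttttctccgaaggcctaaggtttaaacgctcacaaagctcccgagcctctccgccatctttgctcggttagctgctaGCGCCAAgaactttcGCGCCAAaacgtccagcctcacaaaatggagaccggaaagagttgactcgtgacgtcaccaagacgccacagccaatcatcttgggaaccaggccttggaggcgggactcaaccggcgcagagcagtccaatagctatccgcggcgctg
Mcm6 (chr1:128359706-128359955, minus strand): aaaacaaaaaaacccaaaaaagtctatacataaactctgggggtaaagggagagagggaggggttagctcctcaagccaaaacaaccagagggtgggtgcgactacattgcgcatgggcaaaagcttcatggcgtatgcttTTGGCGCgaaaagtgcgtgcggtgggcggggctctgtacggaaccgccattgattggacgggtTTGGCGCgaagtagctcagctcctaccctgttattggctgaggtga
Kif11 (chr19:37376132-37376381, plus strand): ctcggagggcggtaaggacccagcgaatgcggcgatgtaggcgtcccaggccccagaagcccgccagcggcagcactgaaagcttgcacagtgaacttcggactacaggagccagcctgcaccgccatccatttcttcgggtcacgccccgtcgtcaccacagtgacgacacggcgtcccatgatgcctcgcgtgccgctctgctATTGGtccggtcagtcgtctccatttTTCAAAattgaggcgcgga
Cdk1 (chr10:69352913-69353162, minus strand): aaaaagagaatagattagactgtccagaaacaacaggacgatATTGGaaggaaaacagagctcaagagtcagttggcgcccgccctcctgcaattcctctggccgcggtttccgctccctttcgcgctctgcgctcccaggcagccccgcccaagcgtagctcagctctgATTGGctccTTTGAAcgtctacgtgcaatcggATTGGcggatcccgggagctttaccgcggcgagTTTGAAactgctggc
Top2a (chr11:99024190-99024439, minus strand): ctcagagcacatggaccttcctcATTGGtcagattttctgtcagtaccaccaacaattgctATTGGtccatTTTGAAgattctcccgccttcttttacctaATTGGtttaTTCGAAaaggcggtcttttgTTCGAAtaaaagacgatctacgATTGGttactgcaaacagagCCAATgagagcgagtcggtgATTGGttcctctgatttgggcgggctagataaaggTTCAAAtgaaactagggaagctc
Mcm5 and Mcm6 each hold 2 E2F half-sites and no CHR element in these bases. They also hold 2 CCAAT each, and Cdk1 1 E2F half-site, all left in small letters. Kif11 holds 1 CHR element and 1 CCAAT, Cdk1 2 and 3, and Top2a 4 and 6.

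The falls among replication genes were in the helicase and the clamp. The helicase has 6 subunits that form a ring, and 5 of the 6 genes (Mcm3 to Mcm7) fell in the averaged ethanol comparison. Mcm6 (ENSMUSG00000026355, chromosome 1, 128331590 to 128359664 on GRCm38) had 224, 207 and 222 CPM in the wild type PBS libraries and 197, 184 and 159 in the ethanol ones, against 254, 237 and 239 CPM (PBS) and 211, 193 and 211 CPM (ethanol) in Cat-/- mice. The ethanol libraries lay below the PBS libraries in both genotypes, with means of 180 ± 19.1 against 218 ± 9.03 CPM in wild type mice and 205 ± 10.7 against 243 ± 9.41 in Cat-/- mice (SD, n = 3). The averaged log2 difference was -0.26 (SE 0.056, edgeR adjusted p = 0.0138). Mcm5 (ENSMUSG00000005410, chromosome 8, 75109569 to 75128439) measured 187, 181 and 181 CPM (PBS) and 167, 151 and 136 CPM (ethanol) in wild type mice, and 220, 206 and 199 CPM and 185, 169 and 189 CPM in Cat-/- mice. Again no ethanol library reached a PBS library of its genotype, and Mcm5 fell by 0.24 (SE 0.055, edgeR adjusted p = 0.0190).

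Mcm7 (ENSMUSG00000029730, chromosome 5, 138164583 to 138172422) stood at 228, 220 and 228 CPM in wild type mice after PBS and 217, 182 and 160 after ethanol, and at 264, 255 and 260 CPM in Cat-/- mice after PBS and 223, 213 and 233 after ethanol. Library 10 was the highest of the wild type ethanol libraries and stayed just under the PBS libraries, and library 12 was the lowest of all 12. The averaged difference of Mcm7 was -0.25 (SE 0.064, edgeR adjusted p = 0.0325). Its exons share 12.6% of their length with Cops6, Ap4m1 and the miRNA genes Mir25 and Mir93 and the strand setting of the counting is not known here. Mcm4 (ENSMUSG00000022673, chromosome 16, 15623897 to 15637400) had 145, 129 and 145 CPM in the wild type PBS libraries and 129, 117 and 98 in the ethanol ones, against 168, 155 and 154 CPM (PBS) and 137, 122 and 144 CPM (ethanol) in Cat-/- mice. The gavages overlapped in wild type mice, at library 10, and were apart in Cat-/- mice. Mcm4 fell by 0.26 (SE 0.071, edgeR adjusted p = 0.0359). Mcm3 (ENSMUSG00000041859, chromosome 1, 20802968 to 20820312) measured 165, 158 and 147 CPM (PBS) and 149, 130 and 120 CPM (ethanol) in wild type mice, and 190, 171 and 176 CPM and 156, 144 and 163 CPM in Cat-/- mice. Library 10 again reached the range of the wild type PBS libraries, and the Cat-/- groups did not overlap. Mcm3 fell by 0.23 (SE 0.061, edgeR adjusted p = 0.0365).

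Mcm2, the remaining subunit, did not pass the test. It stood at 183, 158 and 183 CPM in wild type mice after PBS and 177, 154 and 124 after ethanol, and at 213, 202 and 209 CPM in Cat-/- mice after PBS and 185, 170 and 193 after ethanol. In Cat-/- mice each ethanol library was below each PBS library, and in wild type mice libraries 10 and 8 crossed. The averaged difference was -0.20 (SE 0.078, edgeR adjusted p = 0.133). Gins2, a subunit of the GINS complex that joins the helicase at the fork, stood at 13.0 to 17.8 CPM in all 12 libraries, with an averaged difference of -0.17 (SE 0.064, edgeR adjusted p = 0.115). Of Gins2's exon length, 67.3% is shared with Gse1 on the opposite strand, so its counts may hold Gse1 reads. The loading factors had smaller differences: Cdc6 -0.14 (SE 0.093, edgeR adjusted p = 0.386) and Cdt1 -0.095 (SE 0.066, edgeR adjusted p = 0.408). All 9 licensing and helicase genes had lower estimates after ethanol in each genotype.

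**Figure D2:**
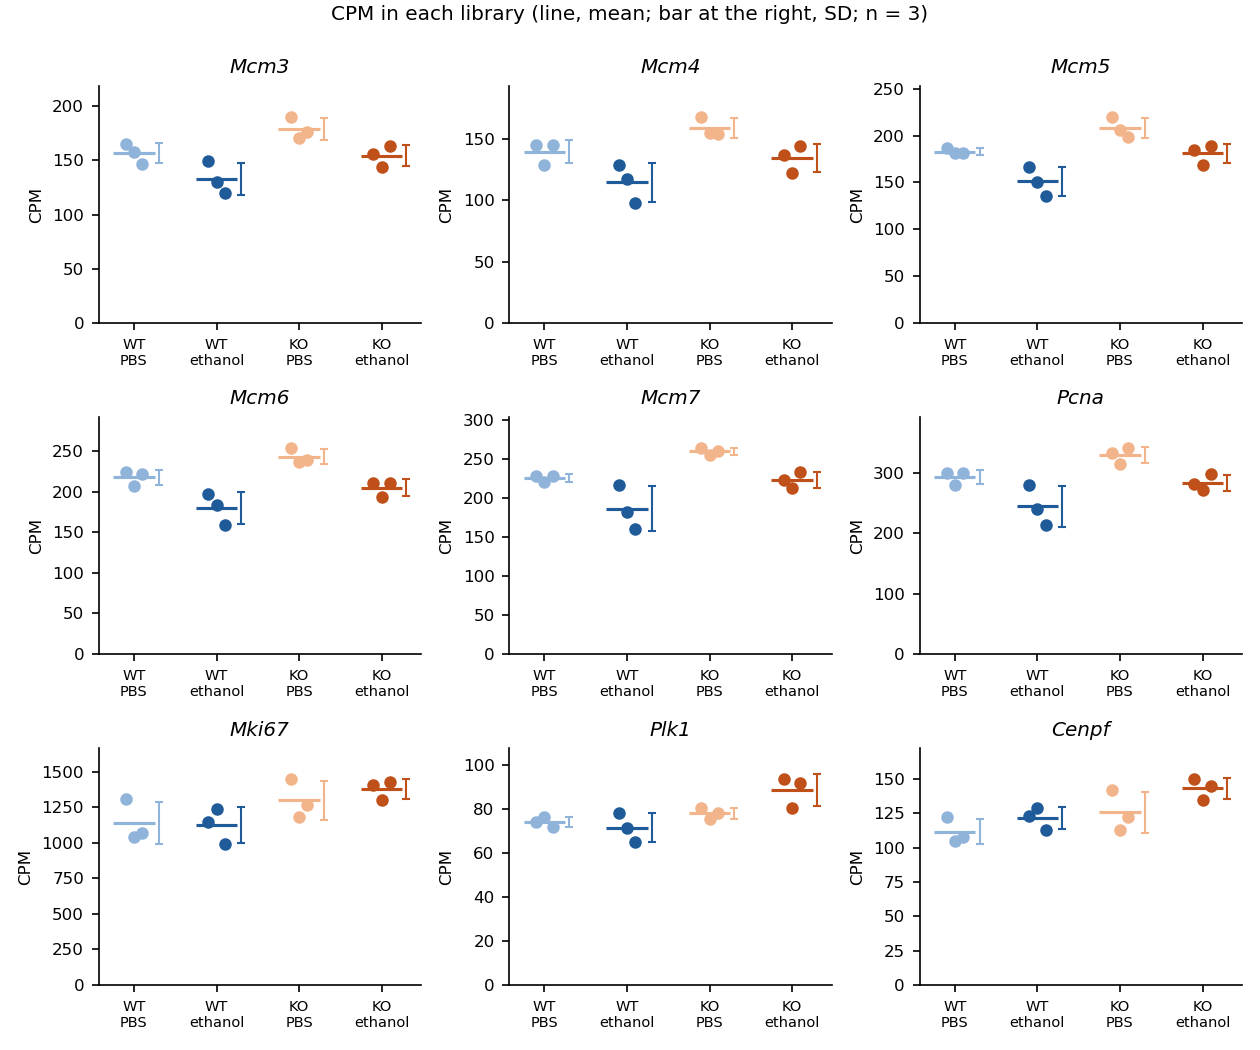
CPM of the 6 replication genes that fell with ethanol and of the mitosis genes Mki67, Plk1 and Cenpf in each of the 12 libraries; points are libraries, lines are group means and bars are SD (n = 3), with each axis starting at 0. For Mcm5, Mcm6 and Mcm7 no ethanol point reaches a PBS point of the same genotype, while the 3 mitosis genes overlap or sit higher after ethanol.

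Of the sliding clamp and the nucleotide enzymes, all with negative averaged differences, Pcna alone passed the test. Pcna (ENSMUSG00000027342, chromosome 2, 132249162 to 132253314) had 299, 279 and 300 CPM in the wild type PBS libraries and 280, 240 and 213 in the ethanol ones, against 333, 314 and 341 CPM (PBS) and 281, 271 and 298 CPM (ethanol) in Cat-/- mice. In wild type mice only library 10 reached the PBS range, and in Cat-/- mice the groups were apart. Pcna fell by 0.24 (SE 0.063, edgeR adjusted p = 0.0336). The annotation names 2 Pcna pseudogenes (Pcna-ps1 and Pcna-ps2), whose reads the counting could have split. Rrm2, the regulated small subunit of ribonucleotide reductase, measured 343, 310 and 344 CPM (PBS) and 338, 321 and 261 CPM (ethanol) in wild type mice, and 404, 394 and 395 CPM and 388, 341 and 405 CPM in Cat-/- mice. Its gavage groups overlapped in both genotypes (averaged difference -0.094, SE 0.068, edgeR adjusted p = 0.431). Rrm1, the large subunit, stood at 284, 270 and 286 CPM in wild type mice after PBS and 296, 267 and 226 after ethanol, and at 330, 300 and 305 CPM in Cat-/- mice after PBS and 317, 299 and 322 after ethanol. Groups overlapped there too, and the difference was -0.042 (SE 0.061, edgeR adjusted p = 0.725). Tyms, which makes thymidylate, stood at 48.9 to 49.6 CPM in wild type PBS libraries and 37.9 to 48.4 after ethanol, without overlap, and at 53.9 to 60.1 against 46.2 to 54.5 in Cat-/- mice, with overlap. Its averaged difference was -0.16 (SE 0.064, edgeR adjusted p = 0.143).

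Genes that drive the entry into S phase did not share a direction. E2f1, an activator of this programme, had 49.4, 43.9 and 40.3 CPM in the wild type PBS libraries and 42.1, 36.5 and 35.5 in the ethanol ones, against 53.5, 48.9 and 47.6 CPM (PBS) and 46.5, 42.4 and 50.3 CPM (ethanol) in Cat-/- mice. The groups overlapped, with an averaged difference of -0.17 (SE 0.068, edgeR adjusted p = 0.140). E2f8, a repressor of E2F targets, measured 147, 134 and 129 CPM (PBS) and 151, 132 and 117 CPM (ethanol) in wild type mice, and 158, 147 and 146 CPM and 163, 150 and 185 CPM in Cat-/- mice. It also overlapped, and its difference was 0.052 (SE 0.071, edgeR adjusted p = 0.709). Cyclin E genes were close to level: Ccne1 had a difference of 0.026 (SE 0.123) and Ccne2 of 0.003 (SE 0.060), with edgeR adjusted p = 0.923 and 0.981. Ccne2 stood at 61.6, 52.3 and 56.3 CPM in wild type mice after PBS and 59.6, 60.2 and 50.9 after ethanol, and at 66, 64.6 and 71.7 CPM in Cat-/- mice after PBS and 66.9, 63.1 and 72.4 after ethanol, so the gavage groups overlapped in both genotypes. In the averaged comparison 10 of the 17 replication genes had an unadjusted p under 0.05, all lower (the 6 that fell, with Gins2, Mcm2, E2f1 and Tyms), where 13.7% of all tested genes did so. Without library 5 it was 6 genes.

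The ethanol effect on replication genes had the same sign in both genotypes for most members. Of the 17, 13 were lower in wild type and in Cat-/- mice, 2 were higher in both (Ccne1 and Ccne2) and 2 changed sign between them (Rrm1 and E2f8). Of the 24 mitosis genes 4 were lower in both (Ccnb2, Cdk1, Ube2c and Nusap1), 14 were higher in both and 6 were opposite. Among all tested genes 38.5% were lower in both and 34.9% higher in both. These comparisons share no library.

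Within a genotype, with 3 libraries a side, no member passed the test. In wild type mice 15 of 17 replication genes were lower after ethanol (53.7% of all tested genes were), with a median of -0.19. In 4 of them (Mcm5, Mcm6, Mcm7 and Tyms) the groups did not overlap, as in 9.06% of all tested genes, and 7 had an unadjusted p under 0.05, against 8.98%. None was called, where 0.705% of all tested genes fell (smallest edgeR adjusted p = 0.115, Mcm5). DESeq2 called 2 members lower in this comparison, where 382 of all 32939 genes fell, low-count genes among them. A fit of the 2 wild type groups alone called no member, and over all genes 4 of 17247, against 229 of 18161 in the main fit. In that fit 3 replication genes had an unadjusted p under 0.05. The main fit shares its estimate of spread over the 4 groups. Replicate pairs correlated at 0.959 to 0.988 in wild type and 0.989 to 0.993 in Cat-/- mice (log2 CPM). Mitosis genes in wild type mice had a median of 0.011, with 14 of 24 higher (46.3% of all tested genes were) and none at an unadjusted p under 0.05. That direction rested on single libraries: 19 of 24 were lower without library 10 and 14 without library 9, 16 were lower with the muscle markers as a covariate, and 21 were higher without library 12. The 7 replication genes at an unadjusted p under 0.05 became 11 without library 10 and 3 without library 12. In Cat-/- mice 13 of 17 replication genes were lower (50.0% of all tested genes were), with a median of -0.14. The groups did not overlap in 8 of them (Mcm2 to Mcm7, Gins2 and Pcna), as in 16.0% of all tested genes, and 6 had an unadjusted p under 0.05, against 8.16%. None was called there either, where 0.903% fell (smallest edgeR adjusted p = 0.137, Mcm6). A fit of the 2 Cat-/- groups alone called 6, and over all genes 1677 of 17761, against 339 of 18161 in the main fit. The mitosis median in Cat-/- mice was 0.11, with 20 of 24 higher (50.0% of all tested genes were), 2 not overlapping (Cdc25c and Plk1, against 16.3% of all tested genes) and 2 at an unadjusted p under 0.05 (Plk1 and Aurkb, against 8.25%). These 2 became 7 in the fit of the 2 Cat-/- groups, 7 with the muscle covariate and 7 without the 3 libraries rich in muscle RNA. In the same 3 alternatives the 6 replication genes became 8, 7 and 7. The mitosis count was 4 without library 1, 5 or 12 and 0 without library 2, 3, 4 or 6. The replication count was 1 without library 1 or 5, 2 without library 4 and 4 without library 3.

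**Figure D3:**
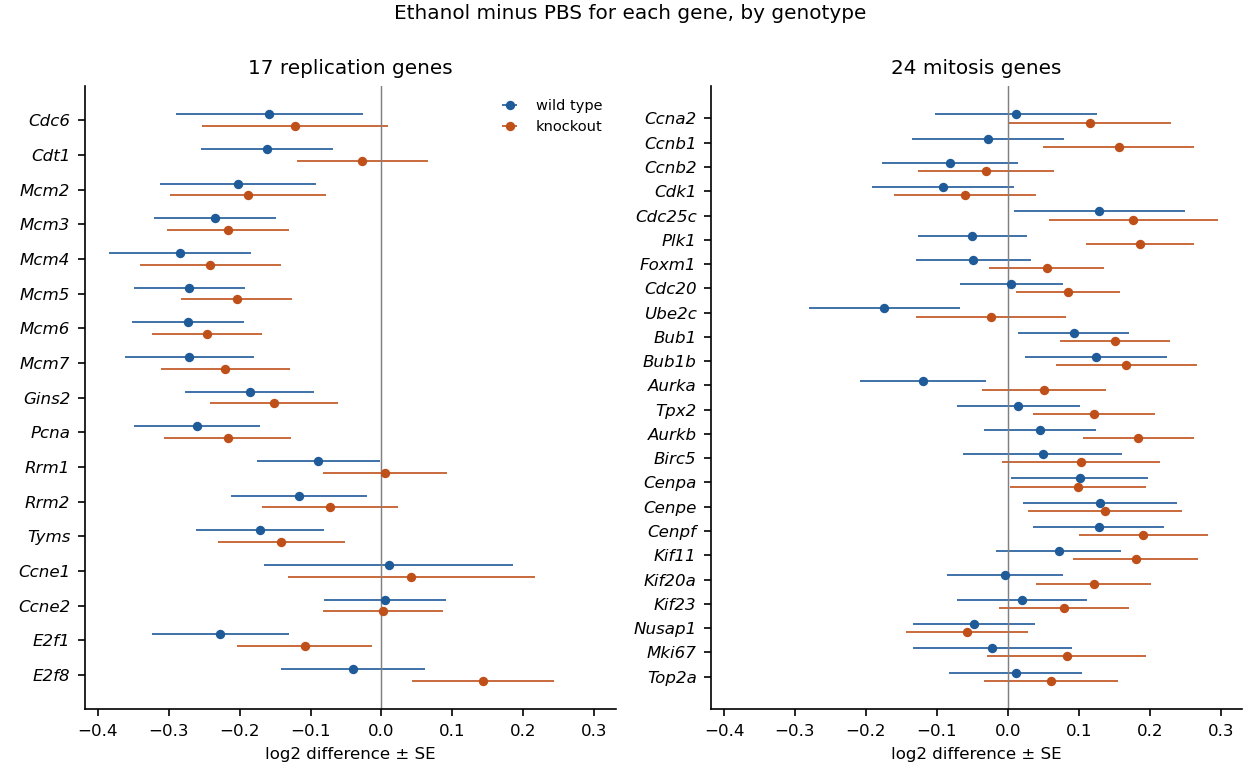
Log2 difference of ethanol minus PBS (points) with its SE (bars) for the 17 replication genes and the 24 mitosis genes, in wild type and in Cat-/- (knockout) mice. Mcm2 to Mcm7 and Pcna lie between -0.19 and -0.28 in both genotypes, and most mitosis genes lie at or right of 0.

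Mitosis genes were described by role in the same comparison. Mki67, the proliferation antigen that coats mitotic chromosomes, had 1310, 1040 and 1070 CPM in the wild type PBS libraries and 1150, 1240 and 990 in the ethanol ones, against 1450, 1180 and 1270 CPM (PBS) and 1410, 1300 and 1430 CPM (ethanol) in Cat-/- mice. Its gavage groups overlapped in both genotypes, with an averaged difference of 0.031 (SE 0.079, edgeR adjusted p = 0.852). Top2a, the topoisomerase that untangles chromosomes, measured 571, 499 and 478 CPM (PBS) and 562, 534 and 464 CPM (ethanol) in wild type mice, and 621, 546 and 550 CPM and 606, 554 and 631 CPM in Cat-/- mice. These also overlapped, at 0.036 (SE 0.067, edgeR adjusted p = 0.790). Cdk1, the kinase that starts mitosis, stood at 110, 110 and 103 CPM in wild type mice after PBS and 117, 103 and 82.6 after ethanol, and at 123, 119 and 129 CPM in Cat-/- mice after PBS and 121, 116 and 120 after ethanol. After ethanol, library 10 was higher and library 12 lower than every wild type PBS library (averaged difference -0.075, SE 0.071, edgeR adjusted p = 0.557).

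Cyclin B activates Cdk1. Ccnb1 had 107, 107 and 102 CPM in the wild type PBS libraries and 120, 106 and 83.8 in the ethanol ones, against 123, 109 and 111 CPM (PBS) and 133, 121 and 128 CPM (ethanol) in Cat-/- mice. Its averaged difference was 0.064 (SE 0.075, edgeR adjusted p = 0.655), with overlap in both genotypes. Ccnb2 measured 122, 114 and 118 CPM (PBS) and 130, 110 and 94.4 CPM (ethanol) in wild type mice, and 143, 130 and 130 CPM and 130, 128 and 137 CPM in Cat-/- mice. That gene had a difference of -0.056 (SE 0.068, edgeR adjusted p = 0.664). The annotation names a pseudogene for each (Ccnb1-ps and Ccnb2-ps). Plk1, a kinase of mitotic entry and spindle assembly, stood at 73.9, 76.4 and 71.9 CPM in wild type mice after PBS and 78.3, 71.5 and 64.8 after ethanol, and at 80.3, 75.5 and 78 CPM in Cat-/- mice after PBS and 93.6, 80.5 and 91.7 after ethanol. In Cat-/- mice each ethanol library was above each PBS library, whereas the wild type groups overlapped. The Plk1 difference was 0.19 in Cat-/- mice (SE 0.076, edgeR adjusted p = 0.246) and -0.050 in wild type mice (SE 0.077, edgeR adjusted p = 0.804). Plk1 had the smallest p of the members for a difference between the genotypes' ethanol effects, at 0.24 (SE 0.108, unadjusted p = 0.0502, edgeR adjusted p = 1).

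Spindle checkpoint, centromere and motor genes follow, with Cenpf the highest of the members in the averaged comparison. Cenpf, a large kinetochore protein, had 122, 105 and 108 CPM in the wild type PBS libraries and 123, 129 and 113 in the ethanol ones, against 142, 113 and 122 CPM (PBS) and 150, 135 and 145 CPM (ethanol) in Cat-/- mice. The groups overlapped, with an averaged difference of 0.16 (SE 0.065, edgeR adjusted p = 0.141). Bub1, a checkpoint kinase, measured 59.1, 58.4 and 52.1 CPM (PBS) and 62.3, 63.6 and 55 CPM (ethanol) in wild type mice, and 60, 54.8 and 57.7 CPM and 64.7, 59 and 67.8 CPM in Cat-/- mice. Library 9 was low among its wild type PBS libraries, and the averaged difference was 0.12 (SE 0.055, edgeR adjusted p = 0.183). Bub1b, the checkpoint partner BubR1, stood at 124, 111 and 103 CPM in wild type mice after PBS and 139, 120 and 108 after ethanol, and at 129, 119 and 110 CPM in Cat-/- mice after PBS and 141, 125 and 135 after ethanol. Ranges crossed in both genotypes, and the difference was 0.15 (SE 0.070, edgeR adjusted p = 0.217). Kif11, the motor that separates spindle poles, had 226, 198 and 202 CPM in the wild type PBS libraries and 239, 220 and 199 in the ethanol ones, against 247, 215 and 215 CPM (PBS) and 252, 242 and 274 CPM (ethanol) in Cat-/- mice. Only library 1 among the Cat-/- PBS libraries reached the ethanol range, and the averaged difference was 0.13 (SE 0.062, edgeR adjusted p = 0.229).

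None of the Aurora kinases and their partners passed the test. Aurkb, the kinase of the chromosomal passenger complex, measured 83.2, 82 and 78.9 CPM (PBS) and 92.7, 81.9 and 77.1 CPM (ethanol) in wild type mice, and 92.7, 82.2 and 85.2 CPM and 98, 91.8 and 106 CPM in Cat-/- mice. Its averaged difference was 0.11 (SE 0.055, edgeR adjusted p = 0.218). Birc5 (survivin), in the same complex, stood at 125, 112 and 122 CPM in wild type mice after PBS and 148, 123 and 100 after ethanol, and at 145, 134 and 144 CPM in Cat-/- mice after PBS and 151, 145 and 158 after ethanol. It had a difference of 0.076 (SE 0.079, edgeR adjusted p = 0.603). Aurka, the spindle pole kinase, had 64.3, 59.8 and 59.1 CPM in the wild type PBS libraries and 63.1, 56.9 and 48.5 in the ethanol ones, against 65, 63.1 and 64.6 CPM (PBS) and 70.7, 60.9 and 68 CPM (ethanol) in Cat-/- mice. Its difference was -0.034 (SE 0.063, edgeR adjusted p = 0.787), and that of Tpx2, the activator of Aurka on the spindle, was 0.068 (SE 0.061, edgeR adjusted p = 0.533).

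Cdc20 activates the anaphase-promoting complex. It measured 84.1, 81.5 and 80.8 CPM (PBS) and 92.2, 80.4 and 74.6 CPM (ethanol) in wild type mice, and 93, 85.9 and 91.3 CPM and 96.8, 91.9 and 97.8 CPM in Cat-/- mice. The averaged difference was 0.045 (SE 0.052, edgeR adjusted p = 0.645). Ube2c, the ubiquitin enzyme of that complex, stood at 153, 201 and 215 CPM in wild type mice after PBS and 156, 176 and 173 after ethanol, and at 176, 181 and 185 CPM in Cat-/- mice after PBS and 189, 167 and 177 after ethanol. Libraries 8 and 9 were the highest of the 12. Of the exon length of Ube2c, 22.8% is shared with Tnnc2, a muscle troponin gene on the opposite strand, and Tnnc2 stood at 535 and 620 CPM in libraries 8 and 9 against 53.3 CPM in library 7. In library 12, also rich in muscle RNA, Tnnc2 was at 610 CPM and Ube2c at 173 CPM, below 8 other libraries. Its part in the Ube2c counts was not tested. Nusap1, a microtubule bundler, had 153, 141 and 148 CPM in the wild type PBS libraries and 158, 146 and 123 in the ethanol ones, against 181, 160 and 161 CPM (PBS) and 165, 158 and 160 CPM (ethanol) in Cat-/- mice. The difference was -0.053 (SE 0.061, edgeR adjusted p = 0.643). The other 8 mitosis genes (Ccna2, Cdc25c, Foxm1, Tpx2, Cenpa, Cenpe, Kif20a and Kif23) had averaged differences of 0.003 (Foxm1) to 0.15 (Cdc25c), and none passed the test. Kif20a shares 29.3% of its exon length with Cdc23.

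Per kb of exon, Rrm2 (128 CPM per kb), Mki67 (123) and Pcna (120) had the highest levels over the 12 libraries, and Cdc25c (3.86) and Gins2 (3.88) the lowest. Replication and mitosis genes were mixed along this order. The 6 genes that fell lay between 38.2 (Mcm4) and 120 (Pcna) CPM per kb.

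Other genes of the cell cycle were taken by list. Of 24 DNA polymerase and fork genes 18 were lower after ethanol in the averaged comparison and 4 fell (5.81% of all tested genes did). They were Gins1 at -0.34 (SE 0.059, edgeR adjusted p = 0.00550), Rfc3 of the clamp loader at -0.27 (SE 0.071, edgeR adjusted p = 0.0307), Timeless of the fork protection complex at -0.27 (SE 0.043, edgeR adjusted p = 0.00366) and the single-strand binding subunit Rpa2 at -0.22 (SE 0.052, edgeR adjusted p = 0.0219). Gins1 measured 21.4, 21.7 and 21.4 CPM (PBS) and 17.7, 16 and 14.5 CPM (ethanol) in wild type mice, and 23.8, 22.6 and 23.1 CPM and 19.9, 17.7 and 20.4 CPM in Cat-/- mice. Timeless stood at 62.1, 61.6 and 58.2 CPM in wild type mice after PBS and 55.3, 51.8 and 49.6 after ethanol, and at 72.2, 69.1 and 67.2 CPM in Cat-/- mice after PBS and 56, 53 and 58.2 after ethanol. For both genes the ethanol libraries lay below the PBS libraries in each genotype. Of 10 origin genes Orc4 fell (-0.22, SE 0.047, edgeR adjusted p = 0.0151), and of 8 nucleotide genes Ctps, which makes CTP, and Dtymk, which phosphorylates dTMP, fell (-0.36 and -0.26, edgeR adjusted p = 0.00263 and 0.0272). The list medians were -0.061, -0.060 and -0.11.

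Of 29 further kinetochore and cytokinesis genes 22 were higher after ethanol, with a median of 0.056, and none rose. One of them fell: Cenpm, a centromere protein, at -0.35 (SE 0.094, edgeR adjusted p = 0.0351). Of 11 checkpoint kinases, phosphatases and repair genes none passed the test and 2 had an unadjusted p under 0.05, both lower, where 13.7% of all tested genes did so.

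Regulators upstream of S phase moved in both directions. Ccnd1 (cyclin D1), which starts the passage through G1, had 33.4, 27.5 and 35.3 CPM in the wild type PBS libraries and 23, 25 and 19.2 in the ethanol ones, against 38.4, 37.9 and 36.2 CPM (PBS) and 24.7, 22.2 and 19.9 CPM (ethanol) in Cat-/- mice. Its ethanol libraries were below the PBS libraries in both genotypes, and it fell by 0.64 (SE 0.084, edgeR adjusted p = 0.00145). Its partner Cdk4 fell by 0.23 (SE 0.066, edgeR adjusted p = 0.0495). The pocket protein Rbl2 (p130), a repressor of E2F genes in resting cells, rose by 0.24 (SE 0.041, edgeR adjusted p = 0.00518), and the repressor E2f7 by 0.23 (SE 0.064, edgeR adjusted p = 0.0411). Of 7 CDK inhibitors, Cdkn1b (p27) rose. It measured 166, 169 and 163 CPM (PBS) and 202, 182 and 192 CPM (ethanol) in wild type mice, and 169, 163 and 171 CPM and 194, 203 and 203 CPM in Cat-/- mice. No ethanol library overlapped a PBS library of its genotype (0.23, SE 0.039, edgeR adjusted p = 0.00457). None of the other CDK inhibitors passed the test. Cdkn1a (p21) was at -0.026, and Cdkn2a (-0.487, SE 0.371) and Cdkn2b (-0.288, SE 0.289) were also lower. Cdkn1c (0.281), Cdkn2d (0.108) and Cdkn2c (0.088) were higher. Of 15 p53 targets and growth arrest genes 4 rose: Sesn2 by 0.51, Trp53inp1 by 0.32, Gadd45a by 0.29 and Sesn1 by 0.27 (edgeR adjusted p = 0.00512, 0.0293, 0.00326 and 0.0301). The list's median was 0.062, with 5 of the 15 lower (Bax, Ccng1, Eda2r, Phlda3 and Zmat3) and Mdm2 at 0.004. Over all tested genes 5.02% rose. Of the list genes named here, Gins1, Timeless, Orc4, Ctps, Ccnd1, Rbl2, Cdkn1b, Sesn2 and Gadd45a passed the test under every alternative, and the call of each other one was lost without at least 1 of the libraries.

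**Figure D4:**
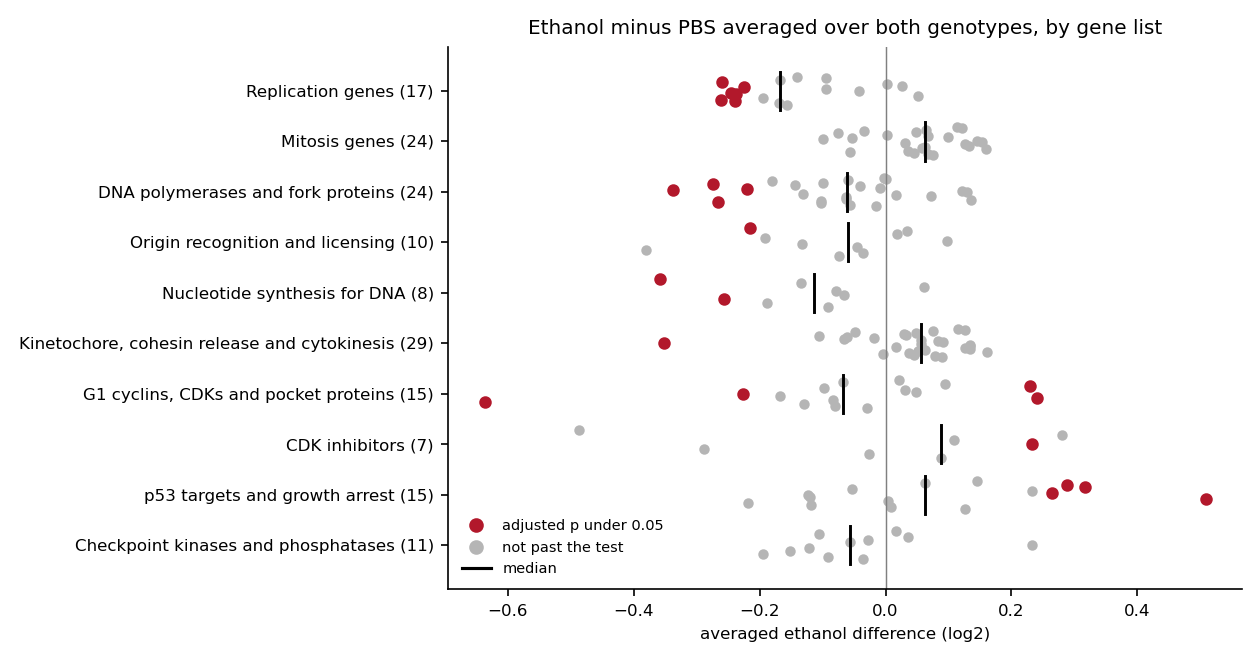
Averaged log2 difference of ethanol minus PBS for each gene of the 2 member sets and 8 further lists; red points passed the test (edgeR adjusted p under 0.05), grey points did not, and black bars are list medians. The replication genes have a median of -0.17 and the mitosis genes of 0.06, and Ccnd1 is the lowest point at -0.64.

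Leaving out a library changed how many of the 6 calls were made. Without library 1 only 1 member (Mcm6) passed. Without library 2, 3, 4, 5 or 11 there were 2 calls, without library 6, 7 or 9 there were 3, without library 8 or 12 there were 5, and without library 10 there were 7. Mcm6 passed under all 22 alternatives and Mcm5 under all but the one without library 1 (edgeR adjusted p = 0.0543). Without the 3 libraries rich in muscle RNA (8, 9 and 12) 4 passed, as did 1642 of all 19098 genes tested there. With the mean of erythroid, neutrophil precursor and B precursor markers as covariates 11 passed, as did 1926 of all 18161 genes. The difference between the replication and mitosis medians was -0.23 and stayed between -0.26 and -0.21 over all alternatives.

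Cell type markers that moved with ethanol stand beside these counts. All 7 osteoblast markers were lower, and 5 fell, among them Alpl by 0.84, Col1a1 by 0.81, Sp7 by 0.76 and Phospho1 by 0.65. Their sums were of 12300 to 15600 against 6040 to 11800 CPM in wild type mice and 18300 to 21800 against 5780 to 12700 in Cat-/- mice. The osteocyte gene Phex (-0.70) and the cartilage factor Sox9 (-0.73) fell. No other gene of their lists passed the test, and Fgf23 (0.225) and Comp (0.165) of these lists were higher. The other tested genes of both lists were lower, among them Col10a1 (-1.248), Col2a1 (-0.932), Acan (-0.925) and Mepe (-0.498). Chondrocyte sums were 226 to 307 against 98.8 to 250 CPM in wild type mice. In Cat-/- mice they were 260 to 334 against 79.6 to 213 CPM, without overlap. Flt3, a receptor of blood progenitors, rose by 0.87. No other stem and progenitor marker passed the test: Kit, Cd34, Meis1 and Gata2 were higher (0.086 to 0.212) and Myb was lower (-0.083). The summed stem and progenitor markers overlapped in both genotypes. They were 328 to 361 against 343 to 368 CPM in wild type mice and 314 to 351 against 343 to 359 in Cat-/- mice. The osteoclast genes Calcr and Ocstamp rose by 1.97 and 0.75. Of 9 markers of mature neutrophils 6 were higher, 3 lower (Ltf, Camp and S100a9) and 2 rose, Mmp8 by 0.42 and Cxcr2 by 0.35, with a list median of 0.081. Their sums overlapped in both genotypes (21500 to 38200 against 23200 to 36700 CPM in wild type mice, 23000 to 23900 against 23100 to 25300 in Cat-/- mice). The summed erythroid markers overlapped between the gavages (3210 to 4300 against 2690 to 4620 CPM in wild type mice, 4700 to 5350 against 4910 to 5490 in Cat-/- mice). Those of neutrophil precursors overlapped in wild type mice (2590 to 4260 against 3140 to 4420 CPM) and were higher after ethanol in Cat-/- mice (2850 to 2970 against 3000 to 4010). No B precursor marker passed the test: Il7r (0.060) and Ebf1 (0.023) were higher and the others lower, Rag2 (-0.555) the most. Their sums overlapped in both genotypes (160 to 229 against 110 to 234 CPM in wild type mice, 215 to 238 against 147 to 226 in Cat-/- mice). The part of osteoblasts, chondrocytes, B precursors or progenitors in the replication result was not tested.

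Without catalase both sets stood higher, and here no member passed the test. Under PBS 40 of 41 members were higher in Cat-/- than in wild type mice, where 48.2% of all tested genes were. All 17 replication genes had a positive difference (median 0.19) and 23 of 24 mitosis genes (median 0.12), Ube2c being the exception at -0.072. The groups did not overlap in 15 replication and 8 mitosis genes, as in 8.98% of all tested genes. At an unadjusted p under 0.05 there were 8 replication and no mitosis genes, against 3.30%. Those 8 became 1 without library 1, 2 without library 3, 3 without library 2, 4 or 8, 4 without library 11, 14 without library 12, 3 without the 3 libraries rich in muscle RNA and 2 with the muscle covariate, and the mitosis count became 7 without library 12 and 6 without library 7 or 10. Mitosis genes higher numbered 17 with that covariate and 14 without the 3 libraries rich in muscle RNA, and replication genes all 17 in both. No gene of the 18161 rose in this comparison (0.00%) and 2 fell, and the smallest adjusted p of a member was 0.605 with edgeR.

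Rrm2 and Ccne2 had the smallest p-values under PBS, at 0.26 (SE 0.096) and 0.25 (SE 0.085), both with edgeR adjusted p = 0.605. Their values, given above, were all higher in libraries 1, 2 and 3 than in libraries 7, 8 and 9. Among mitosis genes Nusap1 (0.18, SE 0.086), Birc5 (0.24, SE 0.112), Cdk1 (0.20, SE 0.100) and Ccnb2 (0.19, SE 0.096) came first, each with edgeR adjusted p = 0.605. For these genes too the PBS groups were apart.

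Under ethanol all 41 members were higher in Cat-/- mice (48.8% of all tested genes were), with medians of 0.26 for replication and 0.21 for mitosis genes. Fewer groups were apart, 7 replication and 5 mitosis genes against 7.12% of all tested genes. An unadjusted p under 0.05 was found for 16 replication and 13 mitosis genes, against 4.16%. These counts were 5 and 4 without library 6, 7 and 4 without library 12, 9 and 5 without library 4, 11 and 7 without library 11, and 7 and 3 without the 3 libraries rich in muscle RNA. None was called (edgeR adjusted p = 0.82 for the smallest). Cdt1, which loads the helicase, stood at 66.5, 63.7 and 63 CPM in wild type mice after PBS and 67, 53.9 and 51.7 after ethanol, and at 75.4, 74.1 and 72.4 CPM in Cat-/- mice after PBS and 69, 68.7 and 80.1 after ethanol. Its difference under ethanol was 0.34 (SE 0.093), and library 6 was the highest. Plk1 had 0.31 (SE 0.076) and Cdc20 0.21 (SE 0.073), all with edgeR adjusted p = 0.82.

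Averaged over the gavages all 41 members were higher in Cat-/- mice, with medians of 0.23 and 0.17, beside -0.003 over all tested genes, of which 49.0% were higher. The largest was Ccne1, at 0.37 (SE 0.123), and the smallest Ube2c, at 0.004. An unadjusted p under 0.05 was found for 16 replication and 16 mitosis genes, against 7.21% of all tested genes. Without the 3 libraries rich in muscle RNA it was 11 and 7. With edgeR no member passed (smallest adjusted p = 0.328), nor with limma-voom or limma-trend. DESeq2 called 10 replication and 5 mitosis genes higher, where 177 of all 32939 genes rose, against 0 with edgeR. The 32939 also hold low-count genes that the edgeR filter removed, so the shares of genes that rose are not alike. The medians of the sets differed by 0.055. By library, the replication minus mitosis value given above was higher in each Cat-/- than in each wild type library after ethanol, while after PBS libraries 1 and 9 crossed. The margin after ethanol was narrow, at -0.233 in library 4 against -0.237 in library 10, where the pooled SD within groups was 0.042. For the genes that are not members the genotypes overlapped after both gavages.

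**Figure D5:**
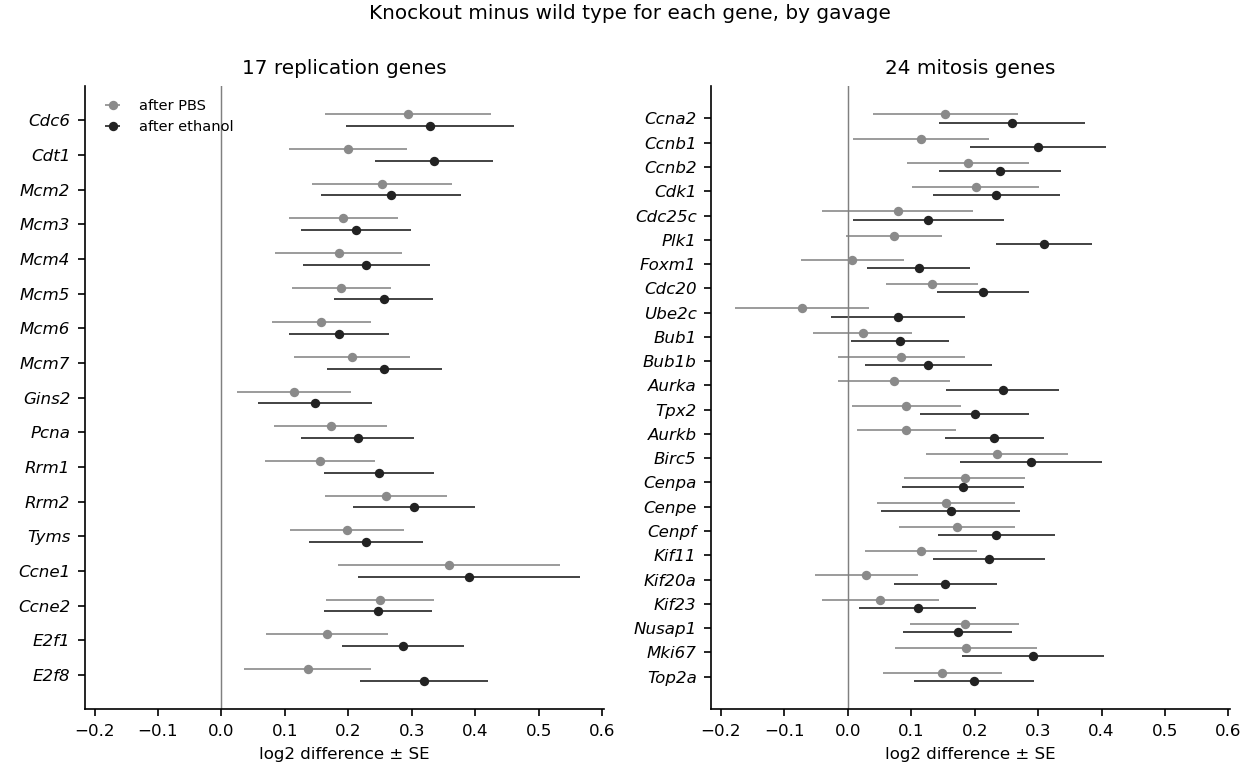
Log2 difference of Cat-/- minus wild type (points) with its SE (bars) for each member after PBS and after ethanol. All points but Ube2c after PBS lie right of 0, in both sets.

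Blood markers moved with the knockout. All 10 erythroid markers were higher in Cat-/- mice in the averaged comparison (median 0.43, all 10 at an unadjusted p under 0.05, none called), and their sum was 2690 to 4620 CPM in wild type and 4700 to 5490 CPM in Cat-/- libraries, without overlap. None was at 0 in any library. The 9 markers of mature neutrophils were all lower (median -0.28) and the 10 of skeletal muscle too (median -1.47). For both lists the sums overlapped between the genotypes. Those of mature neutrophils were 21500 to 38200 CPM in wild type and 23000 to 25300 CPM in Cat-/- libraries. Muscle sums were 975 to 29100 CPM in wild type and 2360 to 9290 CPM in Cat-/- libraries. With the erythroid, neutrophil precursor and B precursor means as covariates, the averaged medians of the members were 0.030 (replication) and 0.017 (mitosis). Since the erythroid sums did not overlap, genotype and erythroid RNA cannot be told apart in these 12 libraries.

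The ethanol effect was not shown to differ between the genotypes. For the difference of the effects (Cat-/- minus wild type) no member passed the test and none had an unadjusted p under 0.05, and no gene of the 18161 was called (0.00%). Over all tested genes 1.98% had an unadjusted p under 0.05. The medians were 0.043 for replication and 0.072 for mitosis genes, with 16 of 17 and 22 of 24 positive. For replication genes the direction turned: 14 of 17 were negative without library 12 (median -0.062), 13 with the mitosis covariate (-0.052), 12 with blood precursor covariates (-0.030) and 9 without library 6 or without the 3 libraries rich in muscle RNA. Of the replication genes E2f8 had the largest difference (0.18, SE 0.142), followed by Cdt1 (0.14, SE 0.131), with edgeR adjusted p = 1 for both.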

How the data were processed

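RNA of femoral shafts was sequenced in 12 libraries, 3 in each of 4 groups, grouped by the labels. Counts per Ensembl gene were used as deposited: whole numbers with no normalization. Per the submitters' processing notes, the tools were Trimmomatic 0.36, STAR 2.5.2b, featureCounts and Subread 1.5.2 on GRCm38. Which annotation and strand setting were used, and how multi-mapping reads were treated, is not known here, so genes that overlap others or have pseudogenes are uncertain. The deposited normalized signal, equal to the count divided by 1 constant per library, was given for 17408 genes and used for symbols and 1 alternative.

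Low-count genes were removed by filterByExpr (count 10, total 15), and libraries scaled by TMM factors (0.908 to 1.05). CPM is the count relative to the scaled library total. One edgeR 4.0.16 quasi-likelihood model (robust, R 4.3.3) held 1 coefficient per group with 8 residual degrees of freedom. It was fitted to all 18161 genes, and p-values were adjusted by Benjamini-Hochberg over all of them. A gene passed at an adjusted p under 0.05. The SE is the log2 difference divided by the root of the F statistic. Set means per library used log2 CPM with a prior count of 2.

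The 41 members and the other gene lists were chosen with earlier results of these data known, so no p is given for a set. All members are accounted for. Values in every library are given for members that passed, for the 4 per set with the smallest p where fewer passed, and for Mki67, Top2a, Cdk1, Ccnb1, Mcm2, Pcna and Rrm2. From each other list up to 4 genes that passed are named. Gins1, Timeless, Ccnd1 and Cdkn1b were chosen for full values after their results were seen. Alternatives were RLE factors, leaving out the low-count filter or requiring 5 CPM in 3 libraries, DESeq2 1.42.0, limma-voom and limma-trend (limma 3.58.1, log2 of the deposited signal plus 1), a fit of the 2 groups compared, muscle or blood precursor covariates, leaving out the 3 libraries rich in muscle RNA, and leaving out each library. The mean of the mitosis genes as a covariate was added after seeing the data.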

Additional observations from a re-analysis of the deposited data

How the results depend on the processing

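No gene that passed the test changed sign, but 157 values of single genes without a call did, and the prevailing sign turned for mitosis genes within wild type mice (median -0.070 without library 10, -0.044 with the muscle covariate) and for replication genes in the difference between genotypes (-0.062 without library 12). In the averaged ethanol comparison, 6 replication genes fell, 11 with blood precursor covariates, 10 with the mitosis mean as a covariate (chosen after seeing the data), and 1 to 7 when 1 library was left out. No replication gene passed within wild type mice, but 7 did with the muscle covariate, 8 with blood precursor covariates, 6 with the mitosis covariate and 2 with DESeq2. Within Cat-/- mice the counts were 2, 4 and 7 with these 3 covariates, 1 without the 3 libraries rich in muscle RNA, 6 in the fit of the 2 groups, and 0 to 1 when 1 library was left out (1 without library 12). The replication minus mitosis difference of medians after ethanol was -0.197 (wild type) and -0.250 (Cat-/-), and -0.236 to -0.146 and -0.294 to -0.242 when 1 library was left out. For the difference between genotypes it was -0.110 without the 3 libraries rich in muscle RNA.

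With blood precursor covariates the medians of Cat-/- minus wild type for all members, replication and mitosis genes were 0.021, 0.032 and 0.009 under PBS, 0.021, 0.021 and 0.022 under ethanol, and 0.028, 0.030 and 0.017 averaged, with replication minus mitosis at 0.023, -0.001 and 0.013. With the mitosis covariate the replication medians were 0.039 under ethanol and 0.055 averaged. DESeq2 called 10 replication and 5 mitosis genes higher in the averaged knockout comparison, where 177 of all 32939 genes rose, low-count genes included. The causes were not tested.

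Over all tested genes the averaged ethanol comparison called 1967 genes (1040 to 2152 when 1 library was left out, 2776 with the muscle covariate, 2508 with DESeq2). Within wild type mice 229 were called (4 to 854 over all alternatives). There 505 were called with the muscle covariate, 854 with blood precursor covariates, 408 with the mitosis covariate and 709 with DESeq2. Within Cat-/- mice 339 were called (52 to 1677, the highest in the fit of the 2 groups), with 893, 478 and 536 for these 3 covariates. In the averaged knockout comparison 2 were called (216 with DESeq2). Of 9120 alternative values of single genes, 238 lost a call and 131 gained one. No paired analysis was possible because each library carries its own number and no number is shared between groups. With 3 pools a group, differences near 0.1 on the log2 scale lie within about 1 to 2 SE for most members.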
